A study of Homo sapiens with 12 samples.

Results

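The EGFR family comprises 4 receptor tyrosine kinases, EGFR, ERBB2, ERBB3 and ERBB4, and ligands of which TGFA, AREG, EREG, HBEGF and BTC were followed here. Array features were taken as members where the platform annotation gave 1 of these 9 symbols. This found 34 features, 21 of them with values, out of 17134 features with values in the series. RNA of the human pancreatic cancer line MIA PaCa-2 was hybridised against control RNA of the same line on 12 whole genome arrays with 2 dyes. There were 6 arrays after 24 h, 4 after 48 h and 2 after 72 h of treatment. Treated cells had received 34 μg/mL of LE, a methanol extract of Achyranthes aspera leaves, in 2% methanol, and control cells had received 2% methanol alone, so that all groups share the solvent. All RNA comes from 1 cell line, and the methods call the replicates biological, with the dyes swapped between them. The methods also state that cultures were set up in duplicate, so the 6 arrays at 24 h and the 4 at 48 h may hold fewer separate cultures than arrays, and the SDs and p-values then measure spread that is technical in part. The values are log2 ratios, where 0 means equal signal and 1 means a 2-fold difference.

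In this family a ligand such as TGFA or HBEGF is made as a membrane-bound precursor and released by proteases. It binds EGFR, or in the case of HBEGF also ERBB4, the receptors then pair, and the paired kinases phosphorylate each other. ERBB2 has no known ligand of its own and acts as a partner, while ERBB3 has little kinase activity and signals by pairing. The signal runs through RAS to ERK and through PI3K to AKT, and EGFR and its ligands are often overproduced in pancreatic ductal cancer.

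The comparison asks which of these genes LE changes in the cells and at which time. The family was chosen by the measured 72 h ratio of 1 EGFR feature, which was extreme, and the other members were added as its relatives. For that reason the 72 h values of the family are given as a description, and a count that the fit gives for them is printed only beside the same share of all features. Tests of members concern 24 and 48 h. They come from limma, fitted over all 17134 features, two-sided, with Benjamini-Hochberg adjustment over all of them.

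Several limits touch every value of the family. The labels name the dye of each RNA but not the direction of the deposited ratio, so ratios were read as deposited and taken as LE over control, and the value after turning each array by its dye label is given where it matters. The number format split exactly by dye orientation: on the 6 arrays with treated RNA in Cy3 all values had at most 6 significant digits, and on the 6 with treated RNA in Cy5 98.7% or more had 8 or more decimals. What was done differently before deposit is not given in the sources used here. Pairs of arrays with one dye orientation correlated at a median of 0.23 over all features (-0.02 to 0.50, 30 pairs), and pairs of opposite orientation at -0.03 (-0.34 to 0.26, 36 pairs, 23 below 0).

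A further limit is that spots annotated to the same transcript did not share their ratios. All 10 EGFR features carry one transcript annotation, as do the 10 measured ERBB2 features. Over the 12 arrays, the correlation between pairs of EGFR features ranged from -0.63 to 0.79 with a median of -0.01 (45 pairs), and between pairs of ERBB2 features from -0.70 to 0.67 with a median of -0.04 (45 pairs). The same held for the 168 transcripts with at least 8 measured features, whose intraclass correlation lay between -0.02 and 0.01 on each array. The link from a row of the table to its gene is therefore not borne out by repeated spots. A gene mean near 0 over such features does not show that the gene stayed level, and a single extreme feature is reported under the name the annotation gives it.

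Values were present for 2 of 4 receptors and 1 of 5 ligands. EGFR had values on 10 of 10 features and ERBB2, the partner receptor, on 10 of 12. ERBB3, the receptor with weak kinase activity, was blank on all 3 of its features and ERBB4, a neuregulin receptor, on both of its 2. Among the ligands, HBEGF, a heparin-binding growth factor, had values on 1 of 2 features. TGFA (1 feature), EREG (2 features) and BTC (2 features), 3 further EGFR ligands, were blank throughout, and AREG is not listed in the annotation used here. Receptors had values on 20 of 27 features, all of them repeated spots of the EGFR and ERBB2 transcripts, and ligands on 1 of 7, where 39.5% of all 43376 features had values. The 5 further ligand genes of the EGF family found in the annotation, among EGF, EPGN and the neuregulins, were blank on all 9 of their features. The methods list 6 quality criteria for keeping a spot on every array. The results of the paper place the comparison at dye swap after the technical criteria. By that account a blank is a failed technical criterion on at least 1 array and not a measured absence. Because these are ratios, the arrays give no order of expression between the family members.

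As a check of the labelled cells, 4 of 6 epithelial markers had values (KRT8, KRT18, KRT19 and MUC1), while EPCAM and CDH1 did not. Of the mesenchymal markers VIM had values. None of the acinar, endocrine or endothelial markers did, and of the leukocyte and fibroblast markers only CD79A and COL1A1, each 1 gene of its list. A ratio does not show the level of a marker, so the identity of the cells was checked no further.

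EGFR, the receptor of epidermal growth factor, had its lowest 72 h mean on feature 34281. This feature was at -3.40 and -2.50 on the 2 arrays at 72 h (mean -2.95 ± 0.64, SD, n = 2, or 0.129 of the control signal), the lowest 72 h mean of all 17134 features. Both arrays were below -2. At 24 h the same feature had -0.88 as its lowest, -0.09 as its median and 0.89 as its highest value (mean -0.02 ± 0.75, SD, n = 6). At 48 h it was at -0.73, 0.78, -0.01 and 0.39 (mean 0.11 ± 0.65, SD, n = 4). Before 72 h the arrays lay on both sides of 0 in equal number, and neither mean differed from 0 (adjusted p = 0.997 at 24 h and 0.960 at 48 h, limma). Turned by the dye labels, the 72 h mean of this feature became 0.45, since 1 of the 2 arrays changes sign.

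EGFR feature 24832 was at -2.65 and -1.22 at 72 h (mean -1.94 ± 1.01, SD, n = 2). At the earlier times 4 of 6 arrays were below 0 at 24 h (mean -0.45 ± 0.49, SD) and 3 of 4 at 48 h (mean -0.50 ± 0.65, SD). These means did not pass the test (adjusted p = 0.884 and 0.640, limma). EGFR feature 38187 was at -1.69 and -1.14 at 72 h (mean -1.42 ± 0.39, SD, n = 2), after -0.38 ± 0.73 at 24 h and -0.57 ± 0.76 at 48 h (adjusted p = 0.920 and 0.624, limma). Turned by the dye labels, the 72 h means of 24832 and 38187 were 0.72 and 0.27, so their direction reversed as it did for 34281. As deposited, these 3 features were the EGFR features with a 72 h mean of at most -1, a level that 3.65% of all features reached.

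Other EGFR features lay above 0 at 72 h. Feature 11717 was at 0.48 and 1.15 at 72 h (mean 0.82 ± 0.47, SD, n = 2), and it was above 0 on 5 of 6 arrays at 24 h (mean 0.32 ± 0.30, SD, adjusted p = 0.879, limma) and on 2 of 4 at 48 h (mean -0.02 ± 0.22, SD). Feature 30040 was at 0.87 and 0.41 at 72 h (mean 0.64 ± 0.33, SD, n = 2), with 24 and 48 h means of 0.02 ± 0.78 and 0.07 ± 0.61. Turned by the dye labels, the 72 h means were 0.33 for 11717 and -0.23 for 30040. In both the 72 h arrays were above 0 while those of the 3 features above were below it, although the annotation gives all of them the same transcript.

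The remaining EGFR features lay nearer to 0 or on both sides of it. Feature 29780 had the widest spread. At 72 h it was at 0.83 and -2.36, at 48 h it was at 1.49, -2.10, -1.75 and -0.16, and at 24 h it ran from -1.30 over a median of -0.78 to 1.80. With the ratios turned, its means were -0.53 at 24 h and -1.29 at 48 h (adjusted p = 0.664 and 0.274, limma), and -1.59 at 72 h. Feature 8188 was at -0.23 and -0.47 at 72 h, feature 39235 at 0.11 and -0.93, feature 23596 at 0.07 and -0.51, and feature 41220 at 0.34 and -0.22. Their 24 h means were -0.32, -0.46, 0.08 and -0.15, and their 48 h means -0.06, -0.52, -0.02 and -0.08. Among these 4 features, only 8188 had both 72 h arrays on one side of 0.

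**Figure D1:**
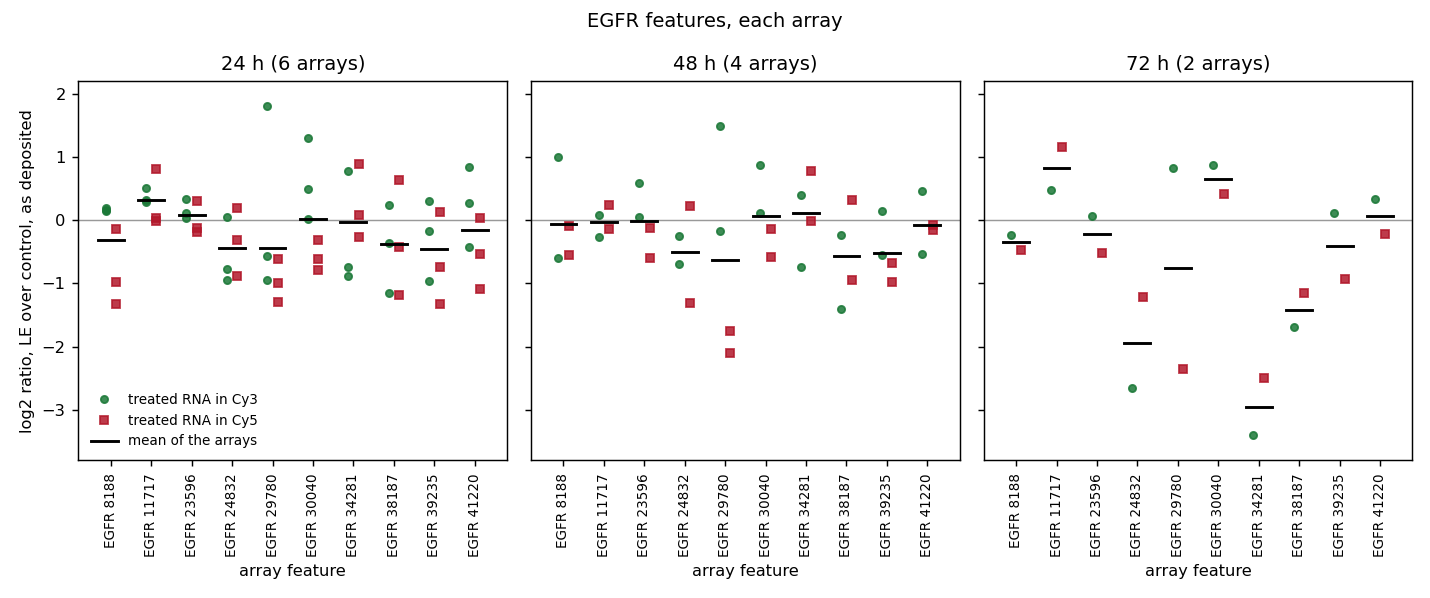
Log2 ratio of LE over control, as deposited, of the 10 EGFR features at 24, 48 and 72 h, with 1 point per array (circles, treated RNA in Cy3; squares, treated RNA in Cy5) and a bar at the mean of the arrays. Features 34281, 24832 and 38187 sit below -1 on both arrays at 72 h, and features 11717 and 30040 sit above 0 on both.

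ERBB2, the receptor that pairs with the others, had features spread evenly around 0. Feature 29744 was above 0 on 4 of 4 arrays at 48 h, at 0.28, 0.84, 0.66 and 0.13 (mean 0.48 ± 0.33, SD, standard error 0.22). It was the one member feature with an unadjusted p under 0.05 at 48 h (unadjusted p = 0.0476, adjusted p = 0.535, limma), and 9.29% of all features had such a p. At 24 h it ran from -0.49 over a median of -0.01 to 0.80 (mean 0.06 ± 0.43, SD, n = 6), and at 72 h it was at 0.88 and 0.75. The 24 h arrays lay on both sides of 0 and those of the later times above it.

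ERBB2 feature 4012 was likewise above 0 on 4 of 4 arrays at 48 h, at 0.87, 0.02, 0.25 and 0.43 (mean 0.39 ± 0.36, SD, adjusted p = 0.715, limma). At 72 h it was below 0 on both arrays, at -0.25 and -0.35. Feature 20315 was below 0 on all 4 arrays at 48 h, at -0.42, -0.11, -0.09 and -0.39 (mean -0.25 ± 0.18, SD, adjusted p = 0.772, limma), and at 0.60 and -0.08 at 72 h. So 3 of 10 ERBB2 features kept one side of 0 at 48 h, 2 above and 1 below, while 14.0% of all features did (7.35% above and 6.69% below). No EGFR feature and not the HBEGF feature did so, and at 24 h, where 2.81% of all features kept one side on 6 arrays, none of the 21 did.

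At 72 h the ERBB2 features divided into 3 that were above 0 on both arrays, 3 that were below 0 on both and 4 that were split, where 30.3% of all features were above 0 on both and 23.7% below. Feature 43498 was the highest at 1.43 and 0.31 (mean 0.87 ± 0.79, SD, n = 2), ahead of 29744 (mean 0.82 ± 0.09) and 34242 (mean 0.49 ± 0.31). The spread of the first overlapped the values of the other two. Features 34426 (mean -0.60 ± 0.66), 9414 (mean -0.39 ± 0.41) and 4012 (mean -0.30 ± 0.07) were the ones below 0. Features 12861, 18189, 20315 and 30333 had means of -0.48, 0.06, 0.26 and 0.33 with 1 array on each side. Turned by the dye labels, the 72 h means of 43498 and 29744 were -0.56 and -0.06, while 34242 (0.22), 34426 (-0.47), 9414 (-0.29) and 4012 (-0.05) kept their sign.

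HBEGF, which binds EGFR and ERBB4, was measured by feature 43135 alone. At 24 h it ran from -0.61 over a median of 0.18 to 0.39, with 5 of 6 arrays above 0 (mean 0.09 ± 0.38, SD, adjusted p = 0.985, limma). At 48 h it was at 0.28, -0.25, -0.25 and -0.47 (mean -0.17 ± 0.32, SD, adjusted p = 0.884, limma), and at 72 h at -0.06 and -0.30. The arrays of 24 and 48 h overlapped.

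**Figure D2:**
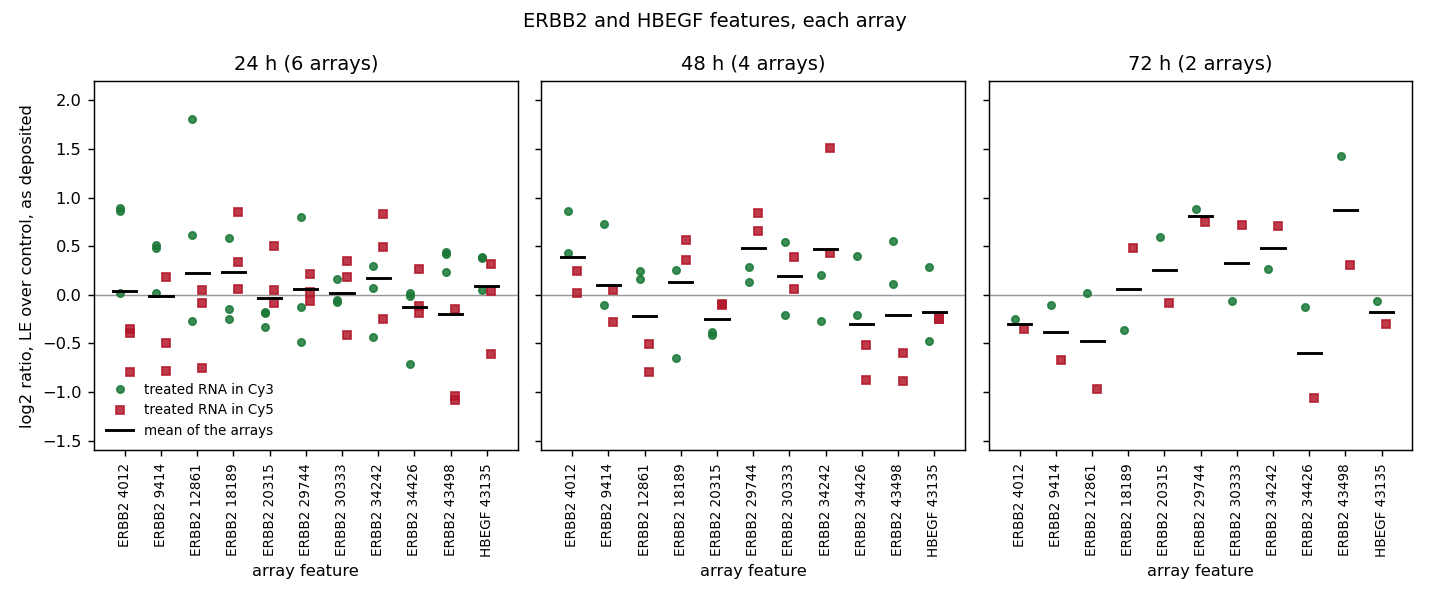
Log2 ratio of LE over control, as deposited, of the 10 measured ERBB2 features and the HBEGF feature at 24, 48 and 72 h, with 1 point per array (circles, treated RNA in Cy3; squares, treated RNA in Cy5) and a bar at the mean of the arrays. ERBB2 features 4012 and 29744 sit above 0 on all 4 arrays at 48 h, and HBEGF lies on both sides of 0 at 24 and 48 h.

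None of the 21 member features passed FDR ≤ 0.01 at 24 or 48 h in limma, as was the case for all 17134 features, of which 990 at 24 h (5.78%) and 1591 at 48 h (9.29%) had an unadjusted p under 0.05. At that unadjusted level the family had 0 features at 24 h and 1 at 48 h. At 72 h, where the choice of the family used the values, 5 member features had one (2 above and 3 below 0, 4 of them EGFR and 1 ERBB2) against 8.99% of all features (4.04% above and 4.96% below), and nothing is read from this. The sign was the same in the 3 time point means for 6 EGFR and 5 ERBB2 features and not for HBEGF, where 40.8% of all features had one sign. The difference between 48 and 24 h passed an adjusted p of 0.05 for 0 of 17134 features in limma, the members included.

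The gene mean averages the features of a symbol on each array. For EGFR it was at 0.01, -0.25, -0.50, 0.05, -0.35 and -0.03 on 24 h replicates 1 to 6 (lowest -0.50, median -0.14, highest 0.05), and the mean was -0.18 ± 0.22 (SD, n = 6). It was at 0.24, -0.32, -0.54 and -0.26 at 48 h (mean -0.22 ± 0.33, SD, n = 4) and at -0.53 and -0.78 at 72 h (mean -0.65 ± 0.18, SD, n = 2). At 24 and 48 h the arrays lay on both sides of 0, 4 of 6 and 3 of 4 below it. The 72 h mean was 0.636 of the control signal, and without feature 34281 it was -0.40 ± 0.27 over 9 features. The median of the features in place of their mean gave -0.32 ± 0.57 (SD, n = 2), with 1 array above 0 and 1 below. At 72 h the SD between EGFR features of one array was 1.51 and 1.13, against 0.68 and 0.63 for all features of the same arrays.

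For ERBB2 the gene mean stayed within 0.30 of 0 on each array. It was 0.04 ± 0.17 at 24 h (SD, n = 6, 3 of 6 arrays above 0), 0.08 ± 0.13 at 48 h (n = 4, 2 of 4 above) and 0.11 ± 0.17 at 72 h (n = 2, 1 of 2 above). The SD is larger than the mean at each time, and the sign turned without 24 h replicate 1 (-0.01) and without 72 h replicate 1 (-0.02). Feature means of ERBB2 ran from -0.19 to 0.24 at 24 h, from -0.30 to 0.48 at 48 h and from -0.60 to 0.87 at 72 h. For HBEGF the gene mean is its 1 feature. The median 72 h mean over all features was 0.04, and 45.7% lay below 0.

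**Figure D3:**
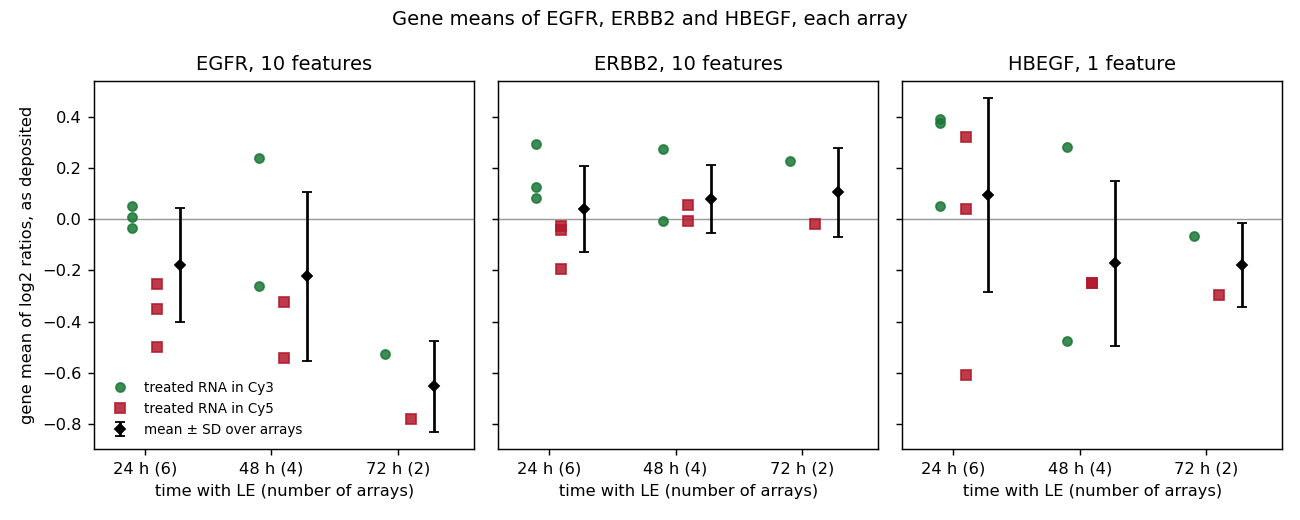
Mean log2 ratio over the features of EGFR (10), ERBB2 (10) and HBEGF (1) on each array by time with LE (circles, treated RNA in Cy3; squares, treated RNA in Cy5), with diamonds and bars for the mean ± SD over the arrays. EGFR is at -0.18, -0.22 and -0.65 at 24, 48 and 72 h, ERBB2 stays near 0, and the 2 squares of HBEGF at 48 h coincide.

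The gene means of EGFR and ERBB2 were lower on the arrays with treated RNA in Cy5 at each time, which was not tested for gene means. At 24 h the EGFR mean was 0.01 on the 3 arrays with treated RNA in Cy3 and -0.37 on the 3 with treated RNA in Cy5. ERBB2 was at 0.17 and -0.09 on the same arrays. At 48 h the means were -0.01 and -0.43 for EGFR and 0.13 and 0.02 for ERBB2. The ERBB2 arrays overlapped there, at 0.276 and -0.009 in Cy3 and at 0.055 and -0.006 in Cy5. At 72 h, with 1 array each, the means were -0.53 and -0.78 for EGFR and 0.23 and -0.02 for ERBB2. With ratios turned by the dye labels the EGFR mean was -0.19, -0.21 and -0.13 at 24, 48 and 72 h, that of ERBB2 was -0.13, -0.05 and -0.12, and that of HBEGF was -0.18, -0.08 and -0.12. Under that reading the EGFR means stayed below 0 at the 3 times, and ERBB2 changed sign at each. The turned EGFR mean at 72 h had an SD of 0.92, with 1 array above 0 and 1 below, so no direction is read from it. At 24 h, 4 of the 21 member features (2 EGFR, 2 ERBB2) then lay below 0 with an unadjusted p under 0.05 in limma, against 5.55% of all features, and the smallest adjusted p among them was 0.461.

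The difference between orientations was tested over the 24 and 48 h arrays, 5 with treated RNA in Cy5 against 5 with treated RNA in Cy3, with the time point in the limma model. ERBB2 feature 43498 was at 0.42, 0.23, 0.44, 0.55 and 0.11 on the arrays with treated RNA in Cy3 and at -1.08, -0.15, -1.04, -0.89 and -0.60 on those with treated RNA in Cy5. The groups do not overlap, and the difference was -1.10 (standard error 0.26, adjusted p = 0.0581). EGFR feature 30040 was at 0.01, 0.49, 1.30, 0.87 and 0.11 against -0.79, -0.62, -0.31, -0.59 and -0.13, again without overlap (difference -1.04, standard error 0.30, adjusted p = 0.0800). EGFR feature 29780 was lower with treated RNA in Cy5 as well (difference -1.67, standard error 0.52, adjusted p = 0.0980), with overlapping groups. It also had the 2 dye orientations far apart at 72 h, at 0.83 in Cy3 and -2.36 in Cy5.

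In all, this difference reached an unadjusted p under 0.05 in 6 of 21 member features (3 EGFR, 3 ERBB2, all lower with treated RNA in Cy5), against 22.3% of all features in either direction and 10.9% in that one. None passed an adjusted p of 0.05, which 123 features of the array did (0.718%). Groups that did not overlap were found for 1 EGFR and 1 ERBB2 feature with lower values in Cy5 (3.44% of all features) and for 1 ERBB2 feature, 20315, with higher values in Cy5 (4.13%). The 3 EGFR features lowest at 72 h differed by 0.54, 0.11 and 0.26 (34281, 24832 and 38187, standard errors 0.38, 0.35 and 0.42). Their unadjusted p was 0.183, 0.760 and 0.545 (limma), so no direction is read from them. What part the dye, the handling of each orientation and LE had in these differences was not tested. Replicate numbers 1 and 4 have treated RNA in Cy3 and numbers 2 and 3 in Cy5 wherever they occur.

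**Figure D4:**
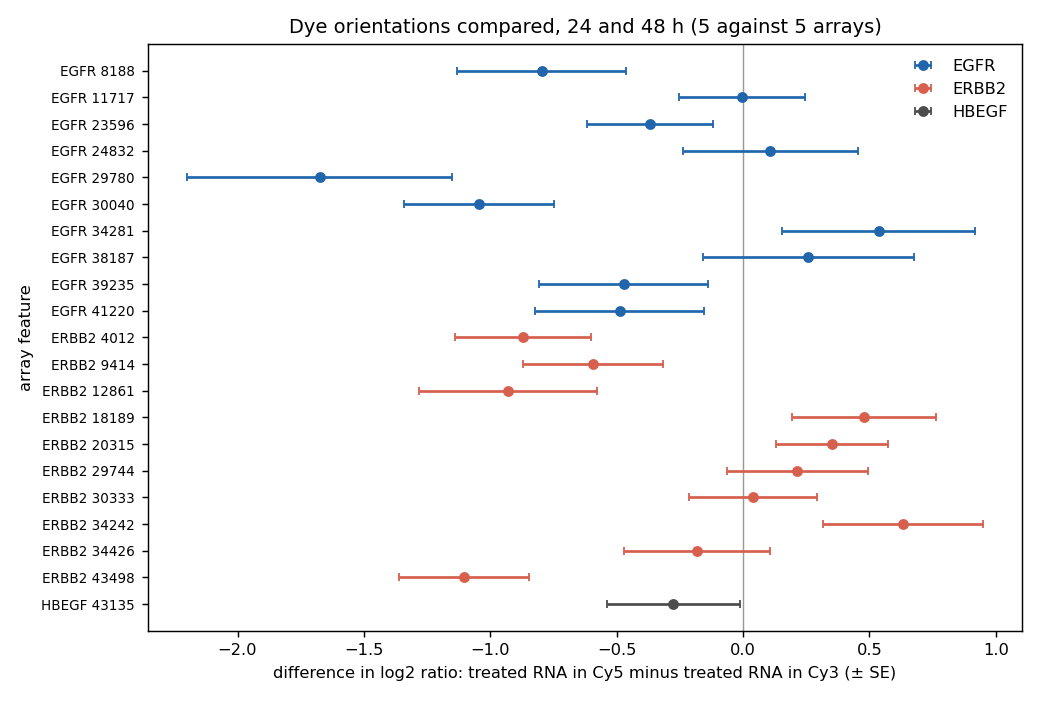
Difference in log2 ratio between arrays with treated RNA in Cy5 and arrays with treated RNA in Cy3 for the 21 member features at 24 and 48 h, with the limma standard error as bars. ERBB2 feature 43498 and EGFR features 29780 and 30040 sit below -1, while EGFR feature 34281 is at 0.54.

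The methods list an opposite change at dye swap among the criteria for keeping a spot. As deposited, 13 of 21 member features had one sign on both 72 h arrays, 6 of 10 EGFR, 6 of 10 ERBB2 and the HBEGF feature, where 54.1% of all features did. The other 8 had opposite signs on these arrays, which were labelled in opposite dyes. Features of both kinds thus have values, so a value does not show that this criterion was met, whichever way the ratio is read.

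Genes around the receptors were followed as means over the features of a symbol, adjusted over 8828 genes. Of the pathway genes named here, STAT3 averaged 12 features, HRAS, SHC1 and MAPK3 10 each, and PDPK1 3. JAK1, IER2 and PHLDA1 averaged 2 each. Each of the others, USP8, EGR1 and ADAM17 among them, rests on 1 feature, and spots of one transcript did not share their ratios. Of 62 measured pathway genes, none passed FDR ≤ 0.01 at a single time or in the mean over the time points in limma. In that mean 36 lay above 0 and 26 below (median 0.02, as over all genes), where 46.5% of all genes lay below. An unadjusted p under 0.05 in limma was found for 2 (15.7% of all genes). USP8, a deubiquitinase that acts on endocytosed receptors, was at 0.40 in the mean (standard error 0.14, adjusted p = 0.167), with 10 of 12 arrays above 0 and values of -0.07 ± 0.51, 0.47 ± 0.31 and 0.80 ± 0.07 (SD) at 24, 48 and 72 h. EGR1, a transcription factor gene induced by ERK signalling, was at -0.59 in the mean (standard error 0.17, adjusted p = 0.103), with 10 of 12 arrays below 0 and values of -0.13 ± 0.65, -0.60 ± 0.40 and -1.05 ± 0.48. Turned by the dye labels they were at 0.07 and -0.14. These and the genes named below were picked from their lists by the smallest p in that mean. The share of all genes with 10 of 12 arrays on one side was not counted. Each time holds both dye orientations in equal number, so a gene on one side of 0 on all its arrays lies on both sides once turned.

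Genes for ligand release had values for 4 of 7. ADAM17, the main protease that releases TGFA and HBEGF, was below 0 on 6 of 6 arrays at 24 h (-0.61 ± 0.38, SD) and above 0 on 3 of 4 at 48 h (0.75 ± 0.74) and on both at 72 h (0.87 ± 0.52). Of all features, 2.81% kept one side of 0 at 24 h and 30.3% were above 0 on both 72 h arrays. The smallest adjusted p of this list at 24 h was 0.677 (limma). In the mean over the time points ADAM17 was at 0.34 (adjusted p = 0.346, limma). ADAM10, which releases BTC, was at -0.13, RHBDL2, a rhomboid protease, at -0.28 and RHBDF2, an inactive rhomboid that carries ADAM17 to the surface, at 0.07. After turning by the dye labels, ADAM17 was at 0.03, and the others changed sign, to 0.24 for ADAM10, 0.17 for RHBDL2 and -0.08 for RHBDF2.

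Adaptors and RAS genes had values for 9 of 15, with 6 below 0 in the mean over the time points, where 46.5% of all genes were. GAB1, a docking protein, was at -0.34, HRAS, a RAS GTPase, at -0.13 and SHC1, an adaptor of the activated receptor, at -0.14, while SOS2, an exchange factor of RAS, was at 0.21. HRAS was below 0 on 10 of 12 arrays. The RAF, MEK and ERK list had 4 of 8, where MAP2K2 was at 0.12, MAP2K1 at -0.12, ARAF at 0.14 and MAPK3 at 0.04. None of these genes had an unadjusted p under 0.05 in that mean. With the dye labels used to turn the ratios, SOS2 (-0.13), MAP2K2 (-0.20) and ARAF (-0.03) changed sign, and GAB1 was at -0.52, HRAS at -0.02, SHC1 at -0.08, MAP2K1 at -0.20 and MAPK3 at 0.11.

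On the PI3K, PLC and STAT side 10 of 16 genes had values, 7 above 0 in the mean over the time points. PDPK1, the kinase that activates AKT, was at -0.21, AKT2 at -0.15, JAK1 at -0.27 and STAT3 at 0.04. AKT2 was below 0 on 4 of 4 arrays at 48 h (-0.96 ± 0.57, SD) and above 0 on both at 72 h (0.38 ± 0.06). Of all features, 6.69% were below 0 on each 48 h array and 30.3% above 0 on both 72 h arrays. Of receptor inhibitors and endocytosis genes 19 of 25 were measured, 15 above 0 in the mean, among them RNF41, a ubiquitin ligase for ERBB3, at 0.29. Over all genes 46.5% lay below 0 in that mean. The counts of these lists were not tested and were not repeated with turned ratios. CDC37, a kinase chaperone that ERBB2 depends on, was at -0.32 and LRIG2, a membrane protein of the LRIG family, at -0.47. Each named gene of these lists kept its sign when turned by the dye labels, with JAK1 at -0.61, LRIG2 at -0.66, PDPK1 at -0.12 and AKT2 at -0.03.

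Feedback inhibitors of ERK had values for 4 of 10 genes. DUSP4, an ERK phosphatase, was below 0 on 4 of 4 arrays at 48 h (-1.43 ± 1.53, SD) and at 0.31 ± 0.46 at 72 h. DUSP6 was also below 0 on all 4 arrays at 48 h (-0.42 ± 0.52), DUSP7 was at -0.26 and SPRY2 at 0.13 in the mean over the time points. Growth factor response genes had 12 of 19, of which 5 lay above 0 and 7 below in the mean, where 46.5% of all genes lay below. IER2 was at 0.26, ATF3 at 0.30 and PHLDA1 at -0.20 there, and PHLDA1 was below 0 on all 4 arrays at 48 h (-0.59 ± 0.50). Of all features, 6.69% were below 0 on all 4 of these arrays. In the mean over the time points DUSP4 was at -0.42 as deposited and at 0.40 when turned by the dye labels, SPRY2 at -0.10 and PHLDA1 at 0.06 changed sign as well, and IER2 was at 0.09 and ATF3 at 0.47.

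The features with the pattern most like EGFR feature 34281 were looked for by Pearson correlation over the 12 arrays, which share the cell line and the dye design. A feature of HRAS had r = 0.94, one of HSPE1, a mitochondrial chaperonin, r = 0.90, one of CSNK1E, a casein kinase, r = 0.90, one of SEC23B, a vesicle coat protein, r = 0.88, and one of ZNF629, a zinc finger protein, r = 0.87. Without the 2 arrays at 72 h these were 0.73, 0.87, 0.82, 0.50 and 0.75. At 72 h their means were -1.17, -0.83, -1.24, -1.33 and -0.91. The search used the 72 h values that chose the family, so these low means follow in part from the search. How high the best r of so many features would be on 12 arrays without a shared pattern was not worked out. The r without 72 h is that of features already selected. The HRAS feature is 1 of 10 for that gene, whose mean over the features was -0.19 at 72 h. Among the other EGFR features the correlation with 34281 ran from -0.60 (30040) to 0.78 (24832).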

How the data were processed

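MIA PaCa-2 RNA was measured on 12 two-colour whole genome arrays. According to the methods, the authors scanned them, read them with GenePix Pro, applied image criteria with Acuity, and normalized in limma (version not given) by lowess within and quantile between arrays. The deposited values are log2 ratios, for 17134 of 43376 features on all arrays and blank for the others. Genome build and direction of the ratio are not given in the sources used here, and no sequence or coordinate is printed. Arrays give no read depth, so precision is limited by their number. Features were named by the platform annotation. Groups follow the time point in the labels. limma 3.58.1 in R 4.3.3 fitted 1 mean per time point over 12 arrays (9 residual degrees of freedom) with an FDR of 0.01, and was tested on simulated data. Summaries used Python with pandas 2.3.3. Members and lists were chosen with earlier results of these data known. From each pathway list the 4 measured genes with the smallest p in the mean over the time points were named, and the 5 features most correlated with the most extreme EGFR feature. Same-numbered arrays of different times deviated together at r of 0.06 to 0.49, over 0.1 for 5 of 8 pairs, and differently numbered arrays at -0.51 to 0.48. Same-numbered arrays also share the dye orientation, so number and dye cannot be told apart. In the main fit, numbers were not used as pairs. Alternatives were ratios turned by the dye labels, a dye term, a replicate block, each time alone, centring, scaling, quantile normalization, one sign on every array, an FDR of 0.05, feature medians and each array left out. The dye comparison and the EGFR mean without its lowest feature were added after seeing the data. P-values measure the spread between arrays.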

Additional observations from a re-analysis of the deposited data

Results flagged for a closer look

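EGFR feature 29780 was at 1.80 on 24 h replicate 4, while the other 5 arrays at 24 h lay between -1.30 and -0.56, and this gap is 0.762 of the range of the group. HBEGF feature 43135 was at -0.61 on 24 h replicate 5, with the other 5 arrays between 0.04 and 0.39 (gap 0.647 of the range). These were 2 of 46 groups of 6 or 4 arrays examined, and chance sets 1 array apart in this way in about 1 of 20 groups. ERBB2 feature 4012 was above 0 on all 4 arrays at 48 h (mean 0.39) and below 0 on both at 72 h (mean -0.30), a difference of -0.69. No test of it is given, because 72 h values chose the family.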

How the results depend on the processing

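No member feature passed FDR ≤ 0.01 at 24 or 48 h with the deposited ratios, and the counts below concern unadjusted p under 0.05 unless an FDR is named. With ratios turned by the dye labels the member count was 4 at 24 h in place of 0 (all lower, 2 EGFR and 2 ERBB2) and 1 in place of 5 at 72 h. At 48 h the count was 1 in both readings, but of different features: ERBB2 29744 (higher) as deposited and EGFR 29780 (lower) when turned. At 24 h it was 1 with a dye term, with each time point alone and after quantile normalization, and at 48 h it was 0 in place of 1 with each time point alone, after scaling and after quantile normalization. Leaving out an array gave 0 to 2 at 24 h, 0 to 3 at 48 h (0 without replicate 2, 3, 4 or 5 of 24 h, without replicate 3 of 48 h and without either of the 72 h arrays, and 3 without replicate 4 of 48 h) and 4 to 5 at 72 h, where the counts are a description only. Over all features, those past FDR ≤ 0.01 in the mean over the time points were 9 (all lower), 2 when turned, 15 with a dye term, 1 after scaling, 59 over features of one sign, 213 at an FDR of 0.05, and 0 to 5 with an array left out, with 0 for replicate 5 of 24 h, replicate 4 of 48 h and both of the 72 h arrays. At 24 h there were 3 over features of one sign, at 72 h 3 at an FDR of 0.05, and at 48 h 0 to 2 with an array left out, 2 of them without 48 h replicate 3. With the replicate number as a block the mean gave 1, the block with turned ratios gave 2, and the members then had 4 at 24 h and 1 at 72 h. The EGFR 72 h mean of -0.65 was -0.13 when turned, -0.32 as a median of features and -0.40 without feature 34281. When turned and as a median, 1 of the 2 EGFR arrays at 72 h lay above 0 and 1 below. The ERBB2 means of 0.04 and 0.11 at 24 and 72 h were -0.13 and -0.12 when turned. The cause of these changes was not tested. With an array left out, the gene means ran from -0.01 (without 24 h replicate 1) to 0.09 for ERBB2 at 24 h, from 0.01 (without 48 h replicate 1) to 0.11 at 48 h and from -0.02 (without 72 h replicate 1) to 0.23 at 72 h, from -0.23 to -0.12 (without 24 h replicate 3), from -0.38 (without 48 h replicate 1) to -0.12 (without 48 h replicate 3) and from -0.78 to -0.53 for EGFR, and from 0.04 (without 24 h replicate 4) to 0.24 (without 24 h replicate 5), from -0.32 (without 48 h replicate 1) to -0.07 (without 48 h replicate 4) and from -0.30 to -0.06 for HBEGF. Centring changed none of the member counts by over 1.5 times. Signal over background cannot be read from ratios, and the 2 arrays at 72 h set its precision.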
